A study of Macaca fascicularis with 2 samples.

Results

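The 10 genes described here are myogenic regulators and satellite cell genes, namely PAX7, the myogenic basic helix-loop-helix (bHLH) factors MYF5, MYOD1, MYOG and MYF6, the MEF2 factors MEF2A, MEF2C and MEF2D, and the surface proteins DLK1 and NCAM1. They were taken by name from 28174 genes in the files and not by a rule on their measured values. Earlier results of these data were known when they were chosen. Of the 10, 9 carried their own symbol in the files, and PAX7 was listed under a placeholder symbol that a RefSeq table (assembly T2T-MFA8v1.1) names PAX7. Gastrocnemius, a calf muscle, was taken from cynomolgus macaques (Macaca fascicularis), and its RNA was sequenced in 1 library labelled lean, from a chow diet, and 1 library labelled non-lean, from a high fat diet. No age, sex or number of animals is given in the labels used here. With 1 library per group there is no replicate error, no test and no p-value, and every difference below is between these 2 libraries. Animal, sampling, library preparation, any difference in read layout and diet cannot be told apart in this design. Its stated question is which genes differ between lean and obese muscle.

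Satellite cells are the stem cells of skeletal muscle and lie against the fibre under its basal lamina. PAX7 specifies them, MYF5 and MYOD1 commit their progeny to the muscle lineage, and MYOG drives differentiation, while MYF6 is the bHLH factor most prominent in mature fibres. The bHLH factors bind DNA as dimers with E proteins and act with MEF2 factors, which are also active in the fibre itself. NCAM1 marks human satellite cells and is also found on nerve, at the neuromuscular junction and on denervated fibres. DLK1 is an imprinted transmembrane protein related to Notch ligands and is known from myogenic progenitors and from preadipocytes.

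Summed over all genes, the lean library came to 15983348 counts, with 20691 genes detected, and the non-lean one to 12731974, with 20695. Levels are given as CPM, the counts divided by the library size after trimmed-mean scaling and expressed per 1e6 counts, so that 1 count was worth 0.0657 CPM in lean and 0.0748 CPM in non-lean muscle. A ratio is the log2 of non-lean over lean CPM, so that a negative value is lower in non-lean muscle, and the range in brackets is a 95% Clopper-Pearson interval, which covers counting error only. The 13706 genes whose CPM averaged at least 1 are named tested genes here, although no test between groups was run. Their median ratio was -0.01, with quartiles of -0.39 and 0.34. As a check of the tissue, all 11 skeletal fibre markers that could be matched were abundant, led by skeletal actin ACTA1 at 80375 and 60125 CPM. MYH7 was not matched and is not analysed here.

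The bHLH and MEF2 factors were at nearly the same level in both libraries, while NCAM1, DLK1 and PAX7 were lower in non-lean muscle. All 7 bHLH and MEF2 factors were within 1.5-fold between the libraries, as were 69.4% of tested genes. DLK1 and NCAM1 were more than 2-fold lower with intervals below 0, which made 2 of the 9 tested members, where 7.16% of tested genes were at least 2-fold lower by the same rule. None of the 9 was at least 2-fold higher, against 4.91% of tested genes. Intervals lay below 0 for 6 of the 9 (28.8% of tested genes) and above 0 for none (25.7%), and 3 held 0 (45.5%). The median ratio of the 9 was -0.13. Scaled by total counts, which adds 0.14 to every ratio, the intervals of 3 lay below 0 (MYF6, DLK1 and NCAM1), those of 2 above 0 (MYOG and MEF2C), and 4 held 0, with a median of 0.01. Of tested genes, 20.9% then lay below and 35% above 0. In bulk muscle RNA, fewer cells of a type and less RNA per cell cannot be told apart.

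**Figure D1:**
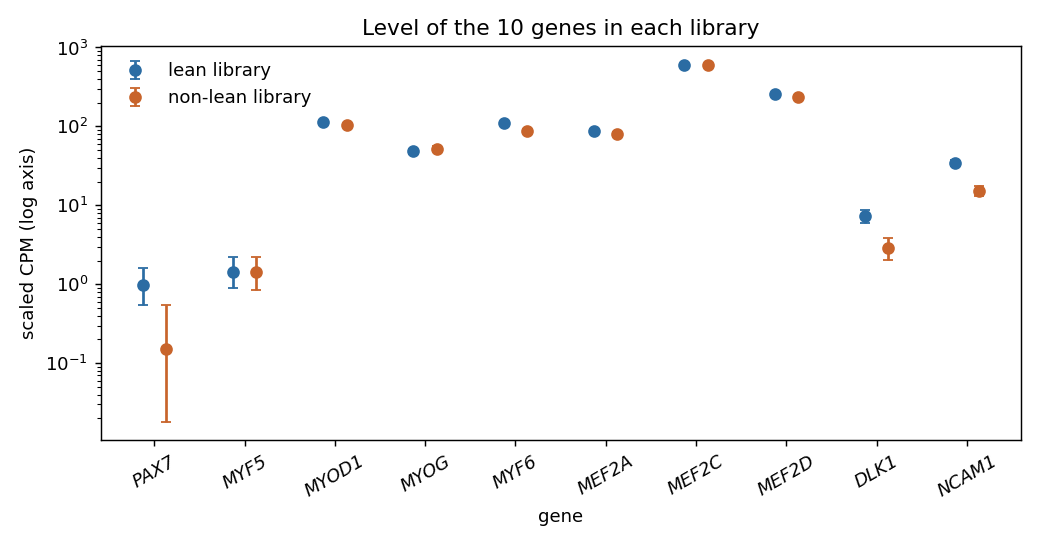
Scaled CPM on a log axis for each of the 10 genes (horizontal axis) in lean and non-lean library, 1 point per library with its 95% Poisson counting interval. Points of the bHLH and MEF2 factors lie side by side, while PAX7, DLK1 and NCAM1 are lower in non-lean muscle. Levels are not per transcript length, so they compare libraries within a gene and not genes with each other.

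PAX7, the paired-box factor that maintains satellite cells, had 15 counts in lean and 2 in non-lean muscle, or 0.986 and 0.150 CPM. Its ratio was -2.45 (-5.89 to -0.62), and with a mean CPM below 1 it was not among the tested genes. With so wide an interval, the size of the difference is not resolved at this depth. All of these counts came from 1 of the 2 transcript models of the gene.

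MYF5, the earliest bHLH factor of the lineage and a marker of committed satellite cells, had 22 counts in lean and 19 in non-lean muscle. These are 1.45 and 1.42 CPM, a ratio of -0.02 (-0.99 to 0.93). At 41 counts in all, a difference smaller than about 2-fold in MYF5 was not detectable. PAX7 and MYF5 thus had different ratios on few counts, and their intervals overlap between -0.99 and -0.62.

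MYOD1, which commits myoblasts and can convert other cells to muscle, had 1720 counts in lean and 1381 in non-lean muscle. Its levels were 113 and 103 CPM, and its ratio was -0.13 (-0.23 to -0.03), 1.09-fold lower. MYOG, myogenin, which switches on the differentiation programme, had 739 and 702 counts, 48.6 and 52.5 CPM, and a ratio of 0.11 (-0.04 to 0.26). Its interval held 0, and it was the single tested member with a ratio above 0. MYF6, also called MRF4, had 1670 and 1169 counts, 110 and 87.4 CPM, and a ratio of -0.33 (-0.44 to -0.22), 1.26-fold lower, the lowest of the 4 bHLH factors.

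Set against each other within a library, which needs no scaling, the bHLH factors kept similar but not equal proportions. Of the summed bHLH counts, MYOD1 made up 41.4% (39.9 to 43.0) in lean and 42.2% (40.5 to 43.9) in non-lean muscle. The share of MYOG was 17.8% (16.7 to 19) and 21.5% (20.1 to 22.9), and that of MYF6 was 40.2% (38.7 to 41.7) and 35.7% (34.1 to 37.4). MYF5 made up 0.530% (0.332 to 0.801) and 0.581% (0.350 to 0.906). Per MYOD1 count there were 0.430 MYOG counts in lean and 0.508 in non-lean muscle, a log2 difference of 0.24 (0.06 to 0.43). Per MYOD1 count MYF6 went the other way, from 0.971 to 0.846, a log2 difference of -0.20 (-0.35 to -0.05). These shares compare the libraries and do not rank the genes, because the counts are not per transcript length.

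The MEF2 factors are MADS-box proteins that bind with the bHLH factors at muscle genes and respond to calcium signals in the fibre. MEF2C had 9259 counts in lean and 7973 in non-lean muscle, 608 and 596 CPM, and a ratio of -0.03 (-0.07 to 0.01). MEF2D had 3948 and 3140 counts, 259 and 235 CPM, and a ratio of -0.14 (-0.21 to -0.08). MEF2A had 1330 and 1071 counts, 87.4 and 80.1 CPM, and a ratio of -0.13 (-0.24 to -0.01). The high counts of this family give narrow intervals, so that differences of about 1.1-fold pass the counting interval for MEF2A and MEF2D. Within the summed MEF2 counts, MEF2C made up 63.7% (62.9 to 64.5) in lean and 65.4% (64.6 to 66.3) in non-lean muscle.

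DLK1 had 110 counts in lean and 38 in non-lean muscle, 7.23 and 2.84 CPM. It was 2.52-fold lower in non-lean muscle, a ratio of -1.33 (-1.92 to -0.80). NCAM1 had 524 and 204 counts, 34.4 and 15.3 CPM, and was 2.25-fold lower, a ratio of -1.17 (-1.42 to -0.94). The intervals of DLK1 and NCAM1 overlap, and neither overlaps the interval of MYOD1, MYOG, MYF6 or any MEF2 factor, while both overlap the wide interval of MYF5. Per MYOD1 count, NCAM1 stood at 0.305 in lean and 0.148 in non-lean muscle, a log2 difference of -1.04 (-1.31 to -0.79) that needs no scaling. For DLK1 these values were 0.0640 and 0.0275, a log2 difference of -1.22 (-1.80 to -0.66). Of tested genes with 50 to 200 summed counts, where DLK1 lies, 10.5% were at least 2-fold lower, and of those with 200 to 1000, where NCAM1 lies, 5.48% were.

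**Figure D2:**
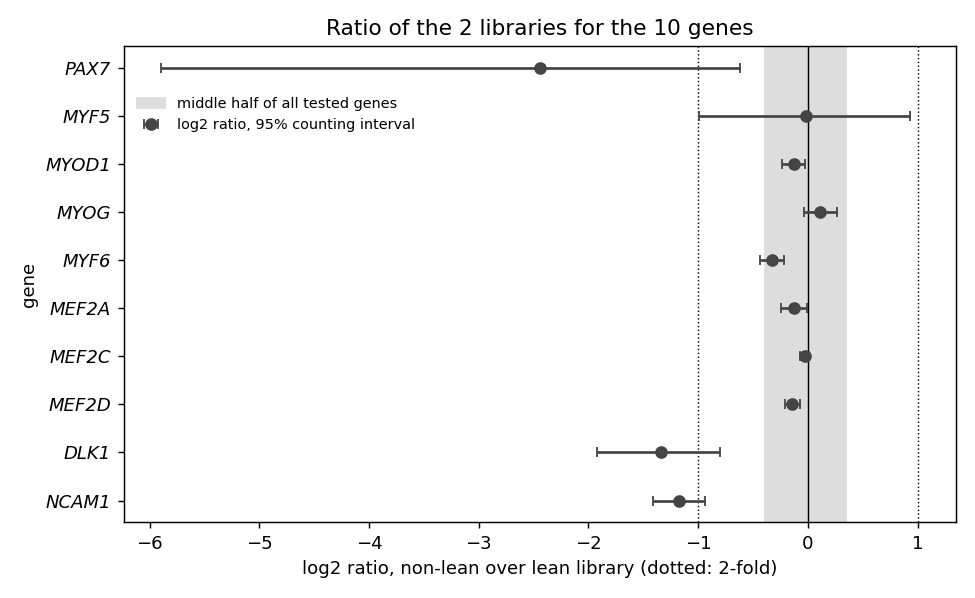
Log2 of the non-lean to lean ratio for each of the 10 genes (vertical axis), with its 95% counting interval as a bar. The grey band holds the ratios of the tested genes between the first and last quartile, from -0.39 to 0.34, and dotted lines mark 2-fold. The bHLH and MEF2 factors lie in the band, and DLK1, NCAM1 and PAX7 lie left of the 2-fold line.

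The small ratios of the bHLH and MEF2 factors depended in sign on how the libraries were scaled. With total counts MYOD1 stood at 0.01, MEF2A at 0.02, MEF2C at 0.11 and MYF5 at 0.12, in place of values below 0, and MEF2D at -0.00. MEF2C and MYF5 were also above 0, at 0.01 and 0.02, with total counts without the 10 most abundant genes. MYOG was above 0 and MYF6 below 0 under all 4 scalings computed, from 0.08 to 0.25 for MYOG and from -0.36 to -0.19 for MYF6. DLK1 ran from -1.37 to -1.19 and NCAM1 from -1.20 to -1.03, so that both remained at least 2-fold lower under each of the 4.

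**Figure D3:**
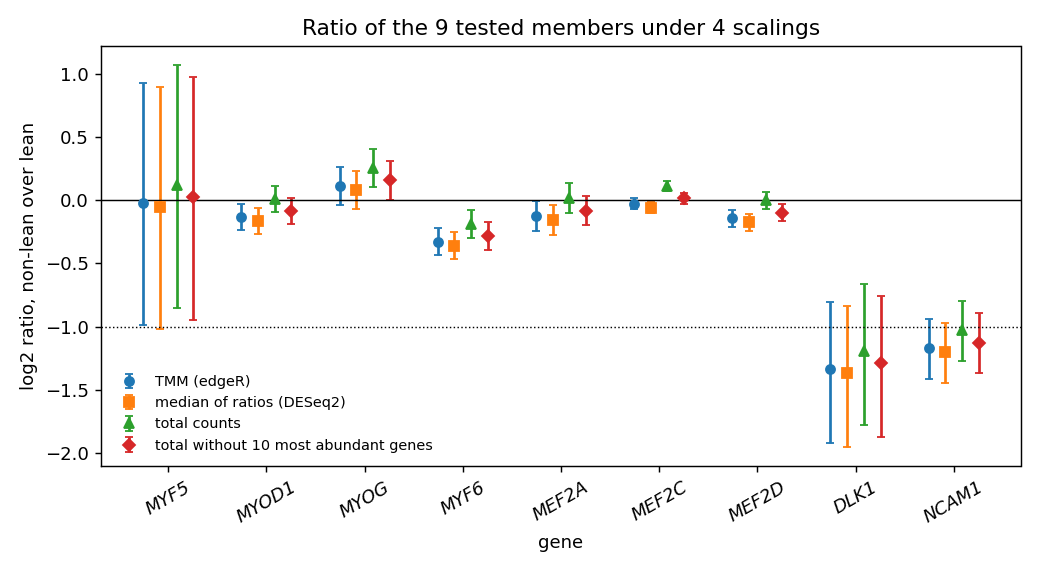
Log2 of the non-lean to lean ratio (vertical axis) for the 9 tested members under 4 scalings, each with its 95% counting interval. The dotted line marks 2-fold lower. DLK1 and NCAM1 lie below it under all 4, while the ratios of MYOD1, MEF2A, MEF2C and MYF5 change sign with total counts.

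Each transcript row of the files is a RefSeq transcript model, and 4 members had several models with at least 100 counts per library for the gene. The division of reads among models of a gene is an estimate, so the shares below are descriptions whose intervals treat the estimated counts as observed. The labels leave the read layout of the libraries unclear, and its part in these shares was not tested. In MEF2A the leading model took 49.0% (46.3 to 51.7) of the gene's counts in lean and 82.0% (79.5 to 84.2) in non-lean muscle. That model went from 652 to 878 counts, a ratio of 0.62, while the other 2 models of MEF2A with counts together went from 679 to 193, a ratio of -1.63. The nearly equal level of MEF2A as a gene therefore combined opposite ratios of its models.

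The gene-level difference of NCAM1 lay mostly outside its leading model. That model had 233 counts in lean and 163 in non-lean muscle, a ratio of -0.33, while its other models together had 291 and 41.3, a ratio of -2.62. The leading model took 44.5% (40.2 to 48.8) of NCAM1 counts in lean and 79.8% (73.7 to 85.2) in non-lean muscle. Of 12 NCAM1 models with an estimated count above 0, 2 had one in both libraries, 6 in lean muscle alone and 4 in non-lean muscle alone. Of those in non-lean muscle alone, the largest had 27.8 estimated counts. The others had 0.82, 0.07 and 0.01, each under a single read. MEF2C and MEF2D were steadier. The leading model of MEF2C took 79.0% (78.1 to 79.8) and 81.2% (80.3 to 82.0), and that of MEF2D 76.4% (75 to 77.7) and 81.4% (79.9 to 82.7). The next models of MEF2C exchanged ranks, from 14.6% and 4.92% in lean to 7.23% and 10.3% in non-lean muscle. A MEF2D model with 224 counts in lean muscle had 0 in non-lean muscle. MYF5, MYF6, MYOD1 and MYOG had a single model each.

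**Figure D4:**
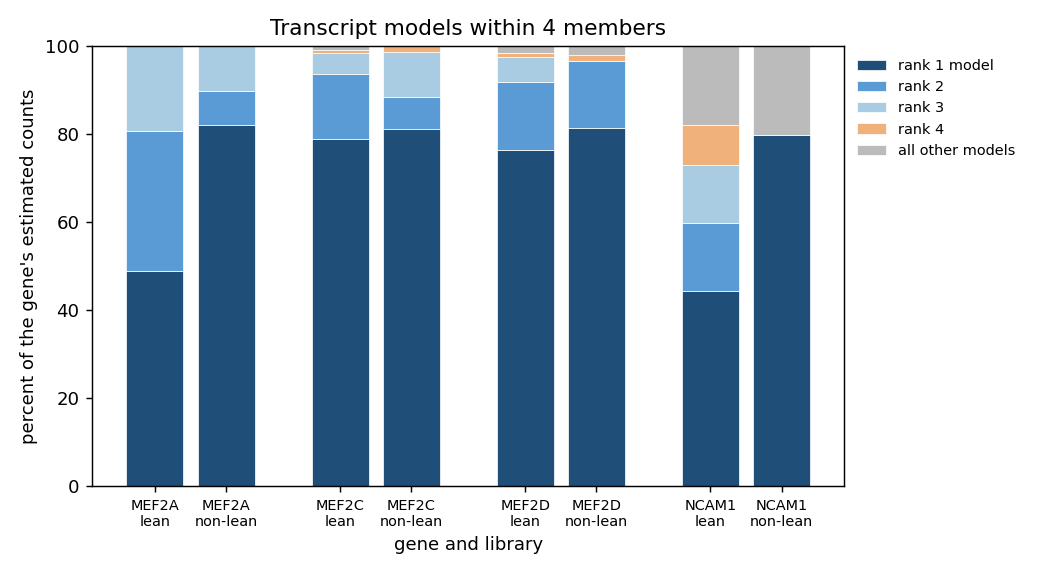
Share of each gene's estimated counts (vertical axis, percent) in its transcript models, for MEF2A, MEF2C, MEF2D and NCAM1 in lean and non-lean library. Colours rank the models of a gene by counts over both libraries, and grey holds all models after the fourth. The leading model takes a larger share in non-lean muscle for each of these genes, with the largest changes for MEF2A and NCAM1.

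In the RefSeq table, whose gene spans may differ from the annotation behind the files, MYF6 and MYF5 were direct neighbours. MYOG overlapped ADORA1, an adenosine receptor gene with 16 and 8 counts, few beside those of MYOG. MEF2C overlapped 1 gene with a placeholder name, and MEF2D and NCAM1 each overlapped 2 such genes. No step that marks strand is named in the labels' protocols, so reads of overlapping genes cannot be told apart by strand. Ratios also moved with gene span, introns included. In 4 bins of nearly equal size made from 12766 tested genes ordered by span, the median ratio was 0.14 in the shortest, then 0.02 and -0.04, and -0.19 in the longest. The bHLH factors and DLK1 lie in the bin of shortest span, where 6.33% of genes were at least 2-fold lower, and MEF2A, MEF2C and NCAM1 in the longest, where 9.68% were. The part of span in the NCAM1 ratio was not tested.

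Most other genes listed for satellite cell identity and quiescence were lower in non-lean muscle. Whether their RNA came from satellite cells or from other cells of the muscle was not tested. Among the listed genes described from here on, ANKRD1, BHLHE40, MBP, MIB1, NOTCH2, PLAGL1 and RUNX1 were at least 2-fold lower under the main scaling and less than 2-fold lower with total counts, which took SMAD3 past 2-fold higher. Of 21 listed genes of satellite cell identity and quiescence that are not members, 19 were tested, with a median ratio of -0.53 against -0.01 over all tested genes. Intervals lay below 0 for 12 of them (28.8% over all tested genes), above 0 for 1 (25.7%), and held 0 for 6 (45.5%). Of the 19, 3 were at least 2-fold lower (7.16% over all tested genes) and 1 at least 2-fold higher (4.91%). The lower genes were the teneurin TENM4 at -2.66 (-3.77 to -1.80), the chordin-like gene CHRDL2 at -1.88 (-2.97 to -1.0) and the syndecan SDC3 at -1.87 (-2.52 to -1.29), the last named after its value was seen. Another syndecan, SDC4, was higher at 1.09 (0.85 to 1.33). CDH15, M-cadherin, which joins satellite cells to the fibre, had 996 and 557 counts and a ratio of -0.65 (-0.80 to -0.50). PAX3, the paralogue of PAX7, had 17 and 4 counts, and its ratio of -1.77 (-3.93 to -0.28) was, like that of PAX7, based on a mean CPM below 1. CHODL had 16 and 14 counts and a ratio of 0.00 (-1.15 to 1.12), and CALCR had 3 counts in each library.

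Partners and inhibitors of the bHLH factors had a median ratio of -0.33 over 14 tested genes of 16 listed, with 2 at least 2-fold lower and none higher. TWIST1, which blocks MYOD1 activity, was lower at -1.34 (-2.76 to -0.20) with 24 and 8 counts. BHLHE40, a repressor and the most abundant gene of this list, was lower at -1.01 (-1.07 to -0.94). ID1, which sequesters E proteins from MYOD1, had 278 and 362 counts and a ratio of 0.57 (0.34 to 0.80), while the E protein TCF4 had one of 0.20 (0.02 to 0.38). With genes under a mean CPM of 5 left out, the list median was 0.01.

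Cofactors and repressors of MEF2 had a median ratio of -0.30 (-0.16 with total counts). Intervals lay below 0 for 17 of 24 tested genes (28.8% over all tested genes) and above 0 for 4 (25.7%). With total counts 14 lay below 0 (20.9%) and 6 above (35%). HDAC9, a class IIa deacetylase that represses MEF2, was lower at -1.37 (-1.73 to -1.02), and PRKD1, a kinase that exports such deacetylases from the nucleus, was lower at -1.58 (-2.43 to -0.86). The deacetylase HDAC4 had a ratio of -0.30 (-0.53 to -0.08). PPARGC1A, a coactivator of MEF2, had one of 0.36 (0.16 to 0.55) and SIK1 one of 0.32 (-0.10 to 0.76). The calcineurin subunit PPP3CB, the most abundant of the list, had a ratio of -0.27 (-0.32 to -0.22).

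Regulators that act upstream of the bHLH factors had a median ratio of -0.49 (-0.35 with total counts). Intervals lay below 0 for 12 of 17 tested genes (28.8% over all tested genes) and above 0 for 3 (25.7%). With total counts 10 lay below 0 (20.9%) and 3 above (35%). SIX2 was lower at -2.41 (-2.69 to -2.15) with 826 and 136 counts, and NFIX, a factor of the fetal muscle programme, at -2.05 (-2.18 to -1.92) with 2828 and 599. EYA2, a transcriptional coactivator named after its value was seen, was also at least 2-fold lower, at -1.53 (-2.17 to -0.95). PITX3 was highest at 0.77 (0.48 to 1.06), and the abundant methyltransferase gene SETD7 stood at -0.83 (-0.89 to -0.77). Notch signalling, which keeps satellite cells quiescent, had a median of -0.28 over 15 tested genes. There NOTCH2 at -1.07 (-1.35 to -0.79) and the ligase MIB1 at -1.08 (-1.42 to -0.76) were at least 2-fold lower. DLL4 was highest at 0.33 (0.01 to 0.66), followed by DTX3 at 0.21 (-0.16 to 0.57), and HES1, the most abundant, stood at -0.28 (-0.42 to -0.13).

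Genes of fusion and early differentiation, which follow MYOG in regeneration, went both ways around a median of -0.17 over 17 tested genes of 22 listed. MYH8, the perinatal myosin, had 3282 counts in lean and 373 in non-lean muscle, a ratio of -2.95 (-3.11 to -2.80). MYH3, the embryonic myosin, had 159 and 72 counts and a ratio of -0.95 (-1.38 to -0.55). Reads of near-identical myosins are divided by estimation, so both values are uncertain. KIRREL1 was lower at -2.50 (-3.43 to -1.74), and CDKN1A, a cell cycle inhibitor named after its value was seen, at -1.22 (-1.62 to -0.84). CHRNA1, the alpha subunit of the acetylcholine receptor, was 5.09-fold higher with 85 and 382 counts, a ratio of 2.35 (2.01 to 2.71). CHRNG, the fetal receptor subunit, had 54 and 85 counts and a ratio of 0.84 (0.33 to 1.36). The fusion gene MYMK had 2 and 0 counts, too few for a ratio.

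NCAM1 and MYOG both stand on the list of genes known to respond to denervation, and their ratios had opposite signs under all 4 scalings. Of 13 tested genes of that list, CHRNA1 was at least 2-fold higher, and HDAC9, NCAM1 and RUNX1, the last named after its value was seen, were at least 2-fold lower, with RUNX1 at -1.10 (-1.93 to -0.37). MYOG, at 0.11, was the median of the list. The ubiquitin ligase FBXO32, the most abundant gene of the list, stood at 0.05 (-0.02 to 0.11).

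Growth factors and growth inhibitors had a median ratio of -0.11 over 21 tested genes of 26, and of 0.03 with total counts. MSTN, myostatin, which restrains myoblast growth, was lower at -1.80 (-2.36 to -1.3) with 156 and 39 counts, and FSTL1 at -1.77 (-1.91 to -1.63). SMAD3, which transmits myostatin signals, was highest at 0.90 (0.80 to 1.0), followed by WNT9A at 0.73 (0.46 to 1.0). Genes known as targets of bHLH and MEF2 factors had intervals below 0 for 16 of 25 and above 0 for 9, with a median of -0.18 (-0.03 with total counts). At the high counts of these genes small differences pass the counting interval, and none held 0, against 45.5% of tested genes. Of the targets, the slow troponin TNNT1 at 1.11 and LMOD3 at 1.08 were at least 2-fold higher. ANKRD1 at -1.13 was at least 2-fold lower, with KLHL40 next at -0.82.

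DLK1 is imprinted, and 6 of 11 listed imprinted genes of its own and the H19 locus and elsewhere were tested. PLAGL1 was lower at -1.05 (-1.46 to -0.67) and MEST stood at -0.80 (-1.54 to -0.12), while GRB10, the most abundant, had a ratio of 0.55 (0.46 to 0.65) and PEG3 one of 0.02 (-0.41 to 0.44). RTL1, from the DLK1 locus, had 2 and 0 counts and DIO3 8 and 6. MEG3, MEG8 and H19 were not matched and are not analysed here. Proliferation genes were low throughout, with 9 of 12 tested and a median of 0.38. With genes under a mean CPM of 5 left out, only PCNA and CCND1 remained, and the list median was 0.05. CCND1, named after its value was seen, stood at -0.28 (-0.69 to 0.13), opposite in sign to PCNA. The 12 genes summed to 29.8 CPM in lean and 30.3 CPM in non-lean muscle. CCNB2 was higher at 1.45 (0.52 to 2.54) with 13 and 32 counts and TOP2A at 1.3 (0.14 to 2.66) with 9 and 20, CCND2 was lower at -1.20 (-1.90 to -0.57), and MCM2 stood at -0.85 (-1.54 to -0.21). The most abundant, PCNA, stood at 0.38 (-0.01 to 0.78). MKI67 had 3 and 5 counts.

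**Figure D5:**
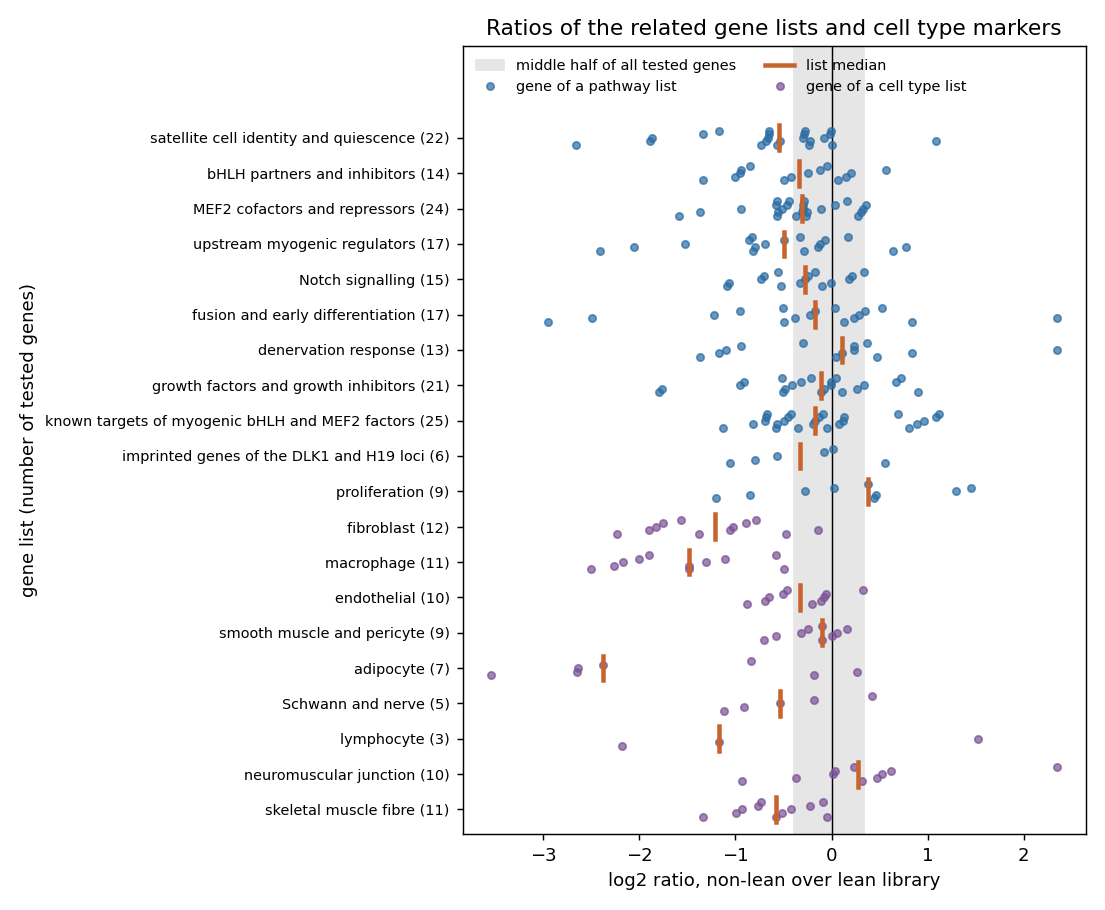
Log2 of the non-lean to lean ratio (horizontal axis) of each tested gene in the related pathway lists and cell type lists (vertical axis), with the list median as a bar. The grey band holds the ratios of the tested genes between the first and last quartile. Fibroblast, macrophage and adipocyte medians lie farthest left, at -1.22, -1.49 and -2.38, and the satellite cell median, with the 3 tested members on that list included, lies at -0.55.

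Beside NCAM1, DLK1 and PAX7, markers of several other cell types were lower in non-lean muscle. Fibroblast markers were at least 2-fold lower for 8 of 12 genes, and their summed level went from 1381 to 633 CPM, with FBN1 lowest at -2.23, DPT highest at -0.14 and the abundant DCN at -0.89. Macrophage markers were at least 2-fold lower for 9 of 11 tested genes and went from 133 to 39.6 CPM in sum, with LYVE1 at -2.50, MRC1 at -0.50 and the abundant CSF1R at -1.49. Adipocyte markers were at least 2-fold lower for 4 of 7 tested genes, with intervals below 0 for 6, and went from 90.4 to 68.6 CPM, with ADIPOQ at -3.55 and FABP4 at 0.26, and the abundant LIPE at -0.19. With genes under a mean CPM of 5 left out, only PLIN1, LIPE and FABP4 remained, and their median was the -0.19 of LIPE. PLIN1, named after its value was seen, stood at -2.64 (-3.36 to -2.03). None of the matched markers of these 3 types was at 0 in either library.

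Schwann cells and nerve, where NCAM1 is also expressed, had a marker sum of 104 CPM in lean and 55.3 CPM in non-lean muscle. Of their 5 tested markers, MBP was at least 2-fold lower at -1.12, PMP22, the most abundant, stood at -0.92, and PRX was highest at 0.42. SOX10 had 6 and 3 counts and S100B had 5 and 3, so that defining Schwann markers were near 0 in both libraries. Neuromuscular junction genes, another site of NCAM1, had a sum of 193 and 226 CPM, with 1 of 10 at least 2-fold higher (CHRNA1) and LRP4 lowest at -0.93, and with the abundant CHRNB1 at 0.04. Lymphocyte markers summed to 13.5 and 6.66 CPM, with MS4A1 and CD79A at 0 counts in both libraries. Of 3 tested markers 2 were at least 2-fold lower and 1 at least 2-fold higher, with CD4 lowest at -2.18 and GZMB highest at 1.53. CD4 alone held 8.94 and 1.94 CPM of the summed level. CD3D had 7 and 6 counts, CD3E 14 and 11, and CD8A 7 and 6, all named after their values were seen.

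Endothelial and smooth muscle markers differed less. None of 10 endothelial markers was at least 2-fold apart, and their sum went from 333 to 278 CPM, with ENG at 0.32, CDH5 at -0.88 and the abundant VWF at -0.20. None of 9 smooth muscle and pericyte markers was either, with a sum of 259 and 229 CPM, RGS5, the most abundant, highest at 0.16 and NOTCH3 lowest at -0.70. Skeletal fibre markers had intervals below 0 for 11 of 11 genes, against 28.8% of tested genes. They ran from MYH4 at -1.34 to MYH2 at -0.05, with ACTA1 at -0.42. At their high counts even small differences pass the counting interval, as for MYH2, 1.04-fold lower. With total counts 9 of the 11 lay below 0, and MYH2 and DES lay above it. The part of other cell types in the ratios of NCAM1, DLK1 and PAX7 was not tested.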

How the data were processed

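Per the labels, 1 lean and 1 non-lean gastrocnemius library of Macaca fascicularis were made from polyadenylated RNA. The deposited files hold expected counts, estimated read counts per RefSeq transcript that need not be whole (76183 rows each) and are not normalised, per the file headers and values. RSEM 1.3.3, STAR 2.7.8a and Trim Galore 0.6.6 appear, with no role stated, in the submitters' processing notes. Build, annotation and filters were not given in the sources used here, and the labels leave the read layout unclear, since single-end and paired-end reads are both named.

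Transcript counts were summed per gene and rounded. In a RefSeq table (assembly T2T-MFA8v1.1), 721 of 11294 placeholder symbols and 594 older symbols found a current name, and 24 date-like symbols were split by transcript accession where it matched. Scaling used the trimmed mean of M-values (TMM, factors 0.952 lean, 1.05 non-lean) in edgeR 4.0.16 under R 4.3.3, with DESeq2 1.42.0 size factors, total counts and total counts without the 10 most abundant genes as alternatives. Ratios used a prior count of 0.5 per library, and intervals are exact at 95%. The interval of a ratio per MYOD1 count is the exact conditional interval of the odds ratio. Counts without molecular identifiers are not independent molecules. A gene was called when at least 2-fold apart with an interval that excluded 0. Other computation used Python 3.11.15, numpy 2.4.6, pandas 2.3.3, scipy 1.17.1 and matplotlib 3.10.9. The interval and the call were run on simulated Poisson counts, which hold no variation between animals or libraries. This checks the computation and not the differences between the 2 libraries.

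The members, the 20 related lists and the alternatives were chosen with earlier results of these data known. By rule the text names all members and, of each pathway list, the 2 highest, 2 lowest and most abundant tested genes, and of each cell type list the highest, lowest and most abundant. PAX3, MYMK, MYH3, MYH8, CHRNG, CDH15, MSTN, ID1, HDAC4, H19 and MEG3 were always named. No genes of like pattern are named, because each gene has 1 ratio. The value of 1 listed gene is not reported here, although it counts in its list.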

Additional observations from a re-analysis of the deposited data

How the results depend on the processing

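No paired analysis was possible because each group holds 1 library, and for the same reason no replicate could be left out. Size factors of DESeq2, a prior count of 2 and unrounded counts left the ratios of all 10 members within their counting intervals. With total counts MYF6 stood at -0.19, MYOD1 at 0.0115, MEF2A at 0.0158, MEF2C at 0.11 and MEF2D at -0.0022, and without the 10 most abundant genes MEF2C stood at 0.0145. These moves follow from the scaling, which shifts every ratio alike. With the largest transcript row alone, MEF2A stood at 0.62, MEF2D at -0.0534 and NCAM1 at -0.33, no longer 2-fold lower. Members at least 2-fold lower numbered 2 under TMM, and 3 without a filter on low counts, when PAX7 joins. Tested genes at least 2-fold higher and lower numbered 673 and 982, so that 40.7% were higher, and 931 and 732, or 56.0% higher, with total counts. They numbered 1629 and 2113 at a fold limit of 1.5, 231 and 485 at a mean CPM of at least 5, and 1082 higher without a filter. Of 246 listed tested genes, 13 changed their call with total counts. Of these, 10 were then less than 2-fold lower, with CD163, CD34 and COL1A2 among them, and SMAD3, TNNC1 and TNNI1 were at least 2-fold higher. Among models with at least 20 counts, a setting chosen after seeing the data, the leading NCAM1 model took 85.4% in the non-lean library. Depth limits PAX7 and MYF5, at 17 and 41 summed counts.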
